A study of Mus musculus with 10 samples.

Results

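The genes described are the contractile genes of smooth muscle and of the myoepithelium, 10 of the 26063 genes of the deposited table: Actg2, Acta2, Tagln, Cnn1, Lmod1, Smtn, Myh11, Mylk, Des and Oxtr. They were matched by gene symbol, and were selected on their function and on the measured difference in CPM between the genotypes, Actg2 because it was low in 1 of them. Their genotype differences are therefore described here and not tested. RNA sequencing had been carried out on bulk mammary tumours of 10 female FVB/N mice, 5 with the genotype 16IC/WT (called 16IC) and 5 with the genotype EIC/WT (called EIC). Doxycycline at 2 mg/ml was given to mice of both genotypes, and tumours were frozen after collection at the end point. What 16IC and EIC stand for is left unexplained in the labels, with the ages of the mice and the promoter and cell type that drive the alleles not given in the sources used here. The title of the series names a variant of HER2 and the enzyme ENPP1. The tumours are from different animals, by their labels, and tumour numbers are names without order.

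Smooth muscle cells and the myoepithelial cells that surround mammary ducts and alveoli shorten by sliding myosin along actin filaments. Calcium entering the cytoplasm activates myosin light chain kinase, and in the mammary gland oxytocin is the hormone that starts this, so that milk is expelled. Many of the contractile genes are known targets of serum response factor and its coactivators of the myocardin family, which act at DNA elements called CArG boxes. Pericytes, vascular smooth muscle, myofibroblasts and, for Des, skeletal muscle are further known sources of the same transcripts.

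Total counts per tumour ran from 14813940 to 16947400. Levels below are CPM, counts scaled to library size by TMM, and FPKM, the authors' length-corrected values, is used wherever 1 gene is set against another. All 10 genes passed the filter on low counts, as did 14915 genes in all. Actg2 reached 10 counts in 2 of the 5 16IC tumours and in 5 of the 5 EIC tumours, so it passed mainly through its EIC counts. Epithelium was well represented in both genotypes: the summed level of 10 luminal genes was 4634 to 6284 CPM in 16IC and 4268 to 6684 CPM in EIC. Keratins that define the myoepithelium had medians under 1 CPM in 16IC and varied widely in EIC. Krt14 had a median of 0.216 CPM in 16IC, with a range of 0 to 13.0, against 64.3 CPM in EIC, with a range of 0.416 to 466. Krt5 had a median of 0.937 CPM in 16IC, with a range of 0 to 3.87, against 0.719 CPM in EIC, with a range of 0.238 to 36.3. Markers of skeletal muscle differed widely between tumours, and 16IC 1, EIC 1 and EIC 2 held most of them.

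The actins come first. Actg2, the gamma smooth muscle actin of gut, bladder and other visceral muscle, is ENSMUSG00000059430 (GRCm38 chromosome 6, 83512905 to 83536265, minus strand). It had 1.30, 1.13, 0.547, 0.548 and 0.528 CPM in 16IC tumours 1 to 5, against 5.16, 5.29, 10.9, 8.19 and 4.58 CPM in EIC tumours 1 to 5. The highest 16IC tumour lay well below the lowest EIC tumour, and the groups did not overlap. These levels rest on 8 to 19 counts in 16IC and on 76 to 182 counts in EIC, and the exact Poisson 95% interval, which covers counting error only, reached at most 2.05 CPM in any 16IC tumour and at least 3.61 CPM in any EIC tumour. The log2 difference, 16IC over EIC, was -3.07 (SE 0.41, 95% interval -3.97 to -2.16). In bulk tissue, fewer cells of a type and less RNA per cell cannot be told apart.

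Acta2, the alpha smooth muscle actin that marks vascular muscle, myoepithelium and myofibroblasts, is ENSMUSG00000035783 (chromosome 19, 34241090 to 34255336, minus strand). It had 14.8, 30.2, 16.1, 17.5 and 63.0 CPM in 16IC tumours 1 to 5, against 56.9, 33.0, 78.9, 68.8 and 80.9 CPM in EIC tumours 1 to 5. Most 16IC tumours were low, but 16IC 5 was within the EIC range and above EIC 1 and EIC 2. The log2 difference was -1.17 (SE 0.43, 95% interval -2.11 to -0.23). Per length, Acta2 was the more abundant of the pair in every tumour, with a median of 9.51 FPKM in 16IC and 37.1 FPKM in EIC, while Actg2 had a median of 0.341 FPKM in 16IC and 3.30 FPKM in EIC. Actg2 made up 9.13%, 4.10%, 3.75%, 3.46% and 0.949% of the FPKM of both actins in 16IC tumours 1 to 5, against 9.39%, 15.5%, 13.6%, 12.0% and 6.08% in EIC tumours 1 to 5. This share was low in 16IC apart from 16IC 1, which exceeded EIC 5.

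The actins are close relatives, and the end of their coding sequences is shown because reads of one could in principle be counted for the other. The last 120 coding bases before the stop codon, from GENCODE transcripts on GRCm38 and with the 19 positions at which the genes differ in capitals, read as follows.
Actg2: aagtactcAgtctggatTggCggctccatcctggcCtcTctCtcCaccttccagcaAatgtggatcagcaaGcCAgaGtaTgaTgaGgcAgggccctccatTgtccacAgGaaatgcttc
Acta2: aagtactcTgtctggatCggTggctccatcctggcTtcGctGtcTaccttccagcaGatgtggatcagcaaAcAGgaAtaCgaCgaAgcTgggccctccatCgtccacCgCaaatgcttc
Over the 1131 coding bases of Actg2, Acta2 was identical at 83.8%, and the longest run without a difference was 29 bases. None of the 1592 stretches of 50 bases in Actg2 transcripts occurred in transcripts of another gene, and 0.326% of those of Acta2 did. The length of 50 bases was a choice, with the read length not given in the sources used here.

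**Figure D1:**
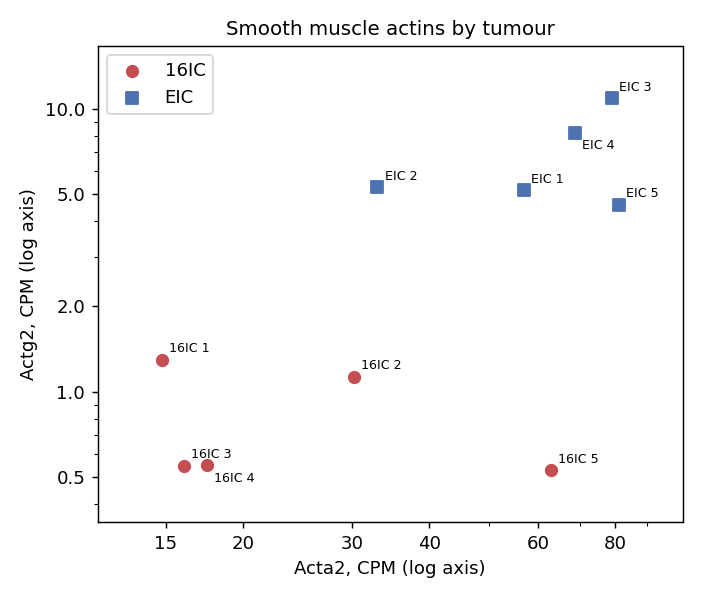
Actg2 (vertical axis) against Acta2 (horizontal axis) in each tumour, both in CPM on log axes, with 16IC tumours as circles and EIC tumours as squares. The 16IC tumours lie at or below 1.30 CPM of Actg2 and the EIC tumours at or above 4.58 CPM, also where their Acta2 levels overlap, as in 16IC 5 with 63.0 CPM and EIC 1 with 56.9 CPM of Acta2.

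Of the actin-binding proteins, Tagln and Cnn1 were low in both genotypes. Tagln, or SM22, which bundles actin filaments, is ENSMUSG00000032085 (chromosome 9, 45929619 to 45936058, minus strand). It had 0.432, 1.55, 0.0608, 0.823 and 2.05 CPM in 16IC tumours 1 to 5, against 1.10, 0.713, 1.74, 1.31 and 2.05 CPM in EIC tumours 1 to 5. The groups overlapped throughout, and the lowest tumour was 16IC 3. Its value is uncertain, since 62.4% of its exonic bases are shared with the antisense gene Gm48529, which had 22 to 68 counts per tumour against 1 to 35 for Tagln, with the strand setting of the counting not given in the sources used here. Cnn1, calponin, which binds actin and slows the myosin motor, is ENSMUSG00000001349 (chromosome 9, 22099216 to 22109630, plus strand). It had 0.937 CPM in 16IC 1, 1.13 CPM in 16IC 2 and 2.87 CPM in 16IC 5, and no count in 16IC 3 and 16IC 4, where a limit of 3 counts allows up to 0.182 and 0.206 CPM, against 2.67, 0.772, 1.80, 2.00 and 2.17 CPM in EIC tumours 1 to 5. Apart from the 16IC tumours without a count the genotypes covered the same range.

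Lmod1 and Smtn were more abundant per length than Tagln and Cnn1 in both genotypes, by median FPKM, and varied less between tumours. The spread of Tagln and Cnn1 holds counting error, since they rest on 1 to 35 and on 0 to 49 counts. Lmod1, a leiomodin that nucleates actin filaments in smooth muscle, is ENSMUSG00000048096 (chromosome 1, 135324807 to 135368065, plus strand). It had 30.8, 32.2, 57.2, 24.8 and 34.2 CPM in 16IC tumours 1 to 5, against 37.1, 13.5, 27.7, 27.4 and 34.2 CPM in EIC tumours 1 to 5. Only 16IC 3 on the high side and EIC 2 on the low side stood away from the rest. Smtn, smoothelin, which is bound to the actin cytoskeleton of contractile smooth muscle, is ENSMUSG00000020439 (chromosome 11, 3517523 to 3540612, minus strand). It had 54.9, 116, 64.0, 47.6 and 133 CPM in 16IC tumours 1 to 5, against 74.8, 55.3, 111, 106 and 74.1 CPM in EIC tumours 1 to 5. The genotypes covered nearly the same range, with averages of 83.1 ± 38.8 CPM in 16IC and 84.2 ± 23.5 CPM in EIC (SD, n = 5 each). Per length, Smtn had the highest median of the 10 genes in 16IC (13.8 FPKM), and Acta2 had the highest in EIC.

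The motor and its kinase overlapped between the genotypes. Myh11, the smooth muscle myosin heavy chain, is ENSMUSG00000018830 (chromosome 16, 14194535 to 14291372, minus strand). It had 4.47, 3.21, 0.547, 1.37 and 5.69 CPM in 16IC tumours 1 to 5, against 7.07, 1.19, 9.71, 4.38 and 3.01 CPM in EIC tumours 1 to 5. Mylk, myosin light chain kinase, which switches the motor on by phosphorylating its light chain, is ENSMUSG00000022836 (chromosome 16, 34745210 to 35002420, plus strand). It had 20.8, 13.0, 6.51, 24.3 and 16.2 CPM in 16IC tumours 1 to 5, against 13.3, 98.0, 30.7, 15.3 and 8.19 CPM in EIC tumours 1 to 5. A single tumour, EIC 2, held over 3 times the Mylk of any other. Mylk is also made as a long form in cells that are not muscle, and these counts do not separate its forms.

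Des, desmin, the intermediate filament protein of all muscle types, is ENSMUSG00000026208 (chromosome 1, 75360329 to 75368579, plus strand). It had 42.4, 7.14, 1.95, 10.6 and 3.81 CPM in 16IC tumours 1 to 5, against 99.6, 192, 8.33, 22.4 and 22.9 CPM in EIC tumours 1 to 5. The 3 tumours with the most Des were EIC 2, EIC 1 and 16IC 1, the same 3 that held most skeletal muscle RNA. Oxtr, the oxytocin receptor, is ENSMUSG00000049112 (chromosome 6, 112473683 to 112489943, minus strand). It had 11.7, 35.0, 10.5, 0.960 and 106 CPM in 16IC tumours 1 to 5, against 32.2, 1.96, 13.4, 29.8 and 29.8 CPM in EIC tumours 1 to 5. It was the most variable of the 10 genes within a genotype, with an SD of 2.11 on the log2 scale, while Lmod1, Actg2 and Smtn varied least, with 0.51, 0.54 and 0.55.

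**Figure D2:**
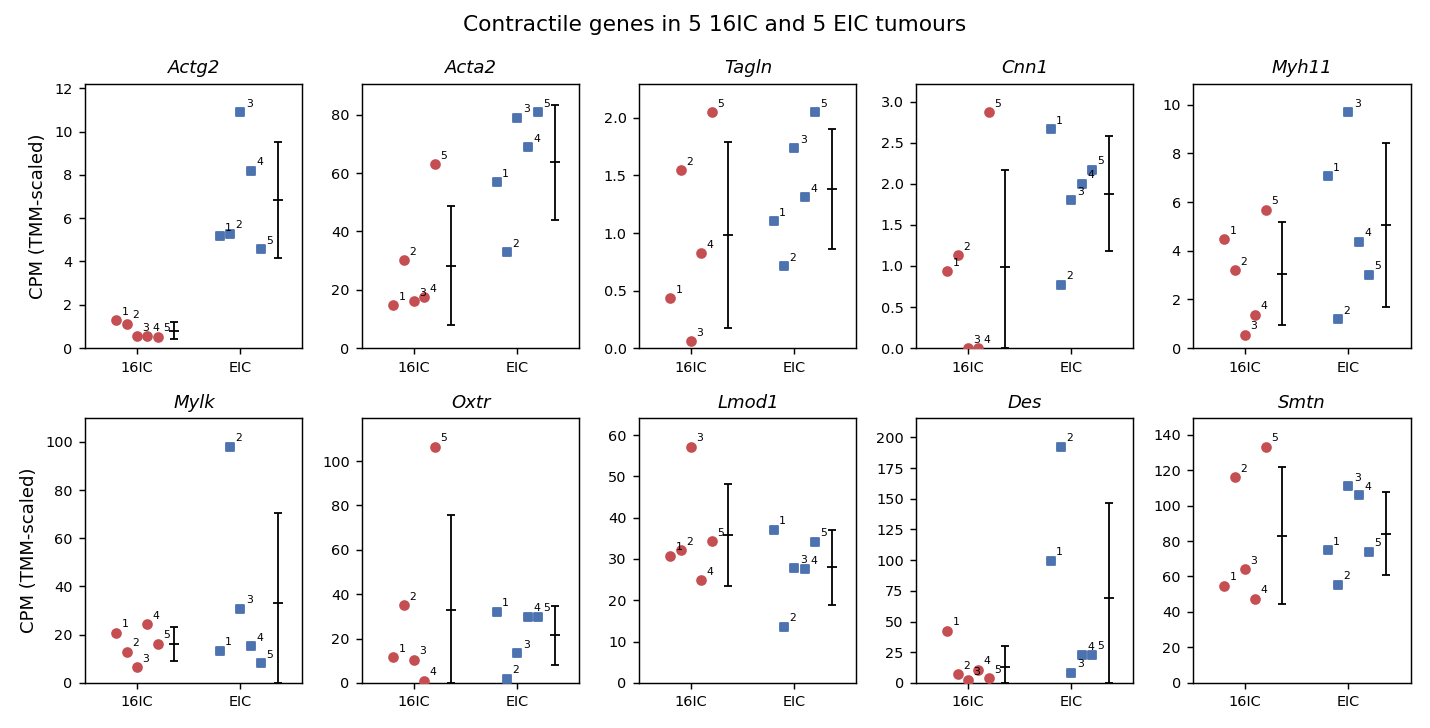
CPM of the 10 contractile genes (vertical axes, linear from 0, TMM-scaled) in 5 16IC tumours (circles) and 5 EIC tumours (squares), with tumour numbers beside the points and black bars for the mean and SD, drawn no lower than 0. Actg2 is the only gene of the 10 whose groups do not overlap, and single tumours stand high for Mylk and Des (EIC 2) and for Oxtr (16IC 5).

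Set side by side, 8 of the 10 genes had lower estimates in 16IC and 2 had higher ones, with a median log2 difference of -0.82, against -0.02 over all 14915 genes tested, of which 52.3% were lower. The ordering ran from Actg2 (-3.07) through Des (-2.40, SE 1.0), Acta2 (-1.17), Mylk (-1.03, SE 0.65), Cnn1 (-0.92, SE 0.98), Myh11 (-0.73, SE 0.66), Tagln (-0.48, SE 0.66) and Smtn (-0.02, SE 0.32) to Lmod1 (0.36, SE 0.29) and Oxtr (0.62, SE 0.99). The 95% intervals of Actg2, Des and Acta2 lay wholly below 0, and those of the other 7 genes included 0. For Smtn the interval ran from -0.72 to 0.68, and for Lmod1 from -0.29 to 1.0. The members were proposed with this contrast in view, so none of these intervals is read as a test.

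Counts of calls are given for the same reason only as a description. EdgeR's quasi-likelihood test called 0 of the 10 at an adjusted p of 0.05, and 0.0% of all genes. At an unadjusted p of 0.05, edgeR had 3 of the 10, all lower in 16IC (Actg2, Acta2 and Des), beside 6.29% of all genes in that direction, 6.84% in the other and 13.1% in either. DESeq2 called 1 of the 10 (Actg2), beside 1.27% of genes with an adjusted p in that direction and 2.11% in either. The groups were apart without overlap for 1 of the 10, again Actg2, beside 1.19% of all genes in that direction, 1.39% in the other and 2.58% in either. The authors' deposited table gives log2 fold changes of -3.08 for Actg2, -1.17 for Acta2 and -2.39 for Des. DESeq2 gave the same rounded values from the same counts, so the deposited ones are no separate check.

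**Figure D3:**
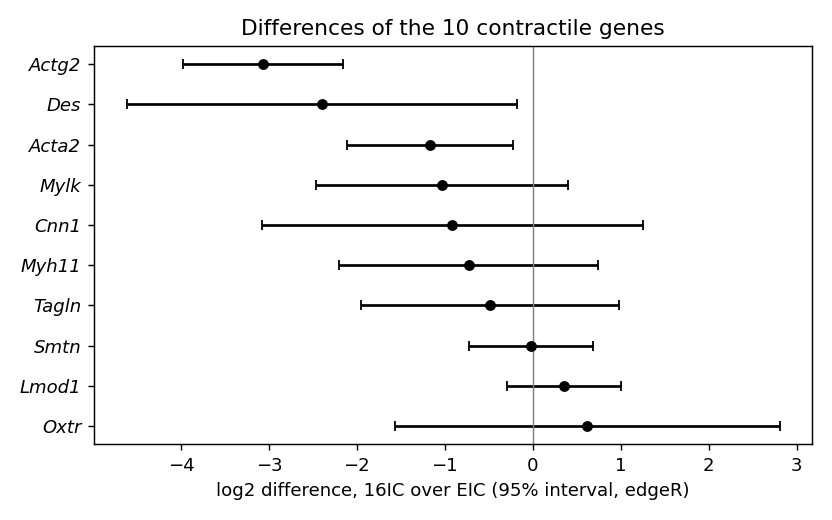
Log2 difference of each contractile gene, 16IC over EIC (horizontal axis), with edgeR's estimate as a point and its 95% interval as a bar. Actg2 lies farthest from 0 at -3.07 with a short interval of -3.97 to -2.16, while Des at -2.40 has an interval of -4.62 to -0.17.

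Some of these estimates turned on 1 tumour. Without EIC 2 the log2 difference of Mylk was -0.05 and that of Des -1.54, and without 16IC 1 that of Des was -3.56. Without 16IC 5, Oxtr was lower in 16IC (-0.56), Cnn1 had a difference of -1.85, Tagln of -0.94 and Acta2 of -1.70. Tagln without 16IC 3 (-0.18) and Myh11 without EIC 3 (-0.36) or 16IC 3 (-0.46) came closer to 0, as did Cnn1 without 16IC 3 (-0.59), and Lmod1 without 16IC 3 (0.13) or EIC 2 (0.19). The difference of Actg2 stayed between -3.28 and -2.84 when any 1 tumour was left out. When 16IC 1, EIC 1 and EIC 2 were left out together, a choice made after seeing the data, it was -3.49, while that of Acta2 was -1.25, of Des -1.60 and of Mylk -0.24.

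The log2 difference of Actg2 lay beyond the median of the other contractile genes, though within the wide 95% interval of Des (-4.62 to -0.17), and without 16IC 1 Des had the larger difference (-3.56, against -3.28 for Actg2). The gap between its log2 difference and the median of the other 9 (-0.73) was -2.34, and it ran from -2.57 to -1.91 when any 1 tumour was left out. Of all genes tested, 64 (0.429%) had a log2 difference as low as Actg2 or lower. Within a tumour, log2 CPM of Actg2 minus the mean log2 CPM of the other 9 was -2.76, -3.15, -2.47, -2.79 and -4.63 in 16IC tumours 1 to 5, against -1.74, -0.88, -0.40, -0.80 and -1.56 in EIC tumours 1 to 5. This balance averaged -3.16 ± 0.86 in 16IC and -1.08 ± 0.56 in EIC (SD, n = 5 each), and the groups did not overlap. Measured against Acta2 alone, it averaged -4.78 ± 1.15 in 16IC and -3.21 ± 0.59 in EIC, and here the groups did overlap, since 16IC 1 had -3.39 while EIC 1 had -3.43 and EIC 5 had -4.11. No test is given for the gap, because Actg2 was chosen for it.

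Whether Actg2 follows the other genes can be asked without the genotype contrast, by comparing how the genes vary among tumours of the same genotype. For each of the 45 pairs of genes, log2 CPM was centred on the mean of each genotype, and Pearson's r over the 10 tumours was tested by exact permutation within genotype over 14400 arrangements, two-sided, with Benjamini-Hochberg adjustment over the 45 pairs. The pairs share the 10 libraries. Actg2 tracked none of the others past the threshold, and its correlations hold counting error, since its 16IC levels rest on 8 to 19 counts. Its 9 correlations ran from -0.12 with Lmod1 to 0.52 with Myh11, with a median of 0.12 (0.02 without 16IC 2 and 0.36, with a highest r of 0.75, without 16IC 5), and its smallest exact permutation p was 0.153 (adjusted 0.327). With Acta2 its r was -0.03 and its rho -0.26 (exact permutation adjusted p 0.963 for r and 0.711 for rho). In the tumours, EIC 3 had both the highest Actg2 of all and a high Acta2, but 16IC 5 paired the highest Acta2 of its genotype with the lowest Actg2, and 16IC 1 the lowest Acta2 with the highest Actg2. These 16IC ranks of Actg2 are near ties. It had 9 counts in 16IC 5, 9 in 16IC 3 and 8 in 16IC 4, and 18 in 16IC 1 against 19 in 16IC 2. Left out in turn, single tumours moved the r of Actg2 with Acta2 between -0.17 and 0.34.

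A group of 6 others, Acta2, Tagln, Cnn1, Myh11, Oxtr and Smtn, was picked out after the values were seen and is described only. Its 15 pairs had r between 0.45 and 0.87, with a median of 0.70, and without 16IC 5 they had r between 0.23 and 0.81, with a median of 0.56. The high tumour for Acta2, Tagln, Cnn1, Myh11, Oxtr and Smtn among 16IC was 16IC 5 in every case, and Cnn1, Tagln and Myh11 were lowest or tied for lowest in 16IC 3. Of these 15 pairs, 1 passed the threshold. This was Cnn1 with Oxtr, with r = 0.82 and rho = 0.84 (exact permutation p = 0.000833 for r, adjusted 0.0375), and r was 0.95 without 16IC 3 and 16IC 4, the tumours farthest from the median of Cnn1. Its rank correlation did not pass (adjusted p 0.185 by exact permutation). Acta2 and Smtn (r = 0.87) and Cnn1 and Myh11 (r = 0.81) had an adjusted exact permutation p of 0.0563, and Acta2 and Tagln (r = 0.79, rho = 0.89) had an adjusted exact permutation p of 0.148 for r and 0.05 for rho. Whether the correlations of Actg2 differ from those of the 6 was not tested.

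The only other pair past the threshold went in opposite directions. Mylk and Lmod1 had r = -0.92 and rho = -0.88 (exact permutation p = 0.00208 for r, adjusted 0.0469, and adjusted 0.075 for rho), and r was -0.87 without EIC 2 and EIC 5. EIC 2 had the highest Mylk and the lowest Lmod1 of the 10 tumours, and 16IC 3 the lowest Mylk and the highest Lmod1. Of the 45 pairs 2 passed by Pearson's r and 0 by Spearman's rho, where Acta2 with Tagln had the smallest adjusted p. That count of 2 was 0 with a prior count of 0.5, 4 with scaling by total counts and 1 with DESeq2 size factors. It was 7 without 16IC 3, 1 without 16IC 4 and 0 without any 1 of the other 8 tumours. In each of these settings 0 of the 9 pairs with Actg2 passed.

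**Figure D4:**
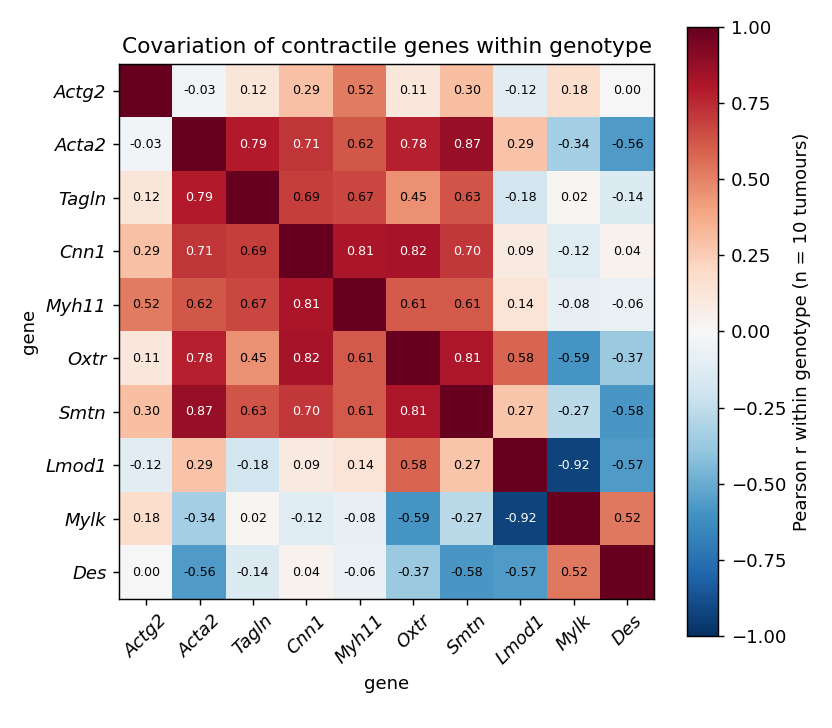
Pearson's r within genotype between the contractile genes (both axes) over 10 tumours, from log2 CPM centred on the mean of each genotype, coloured from -1 to 1 with the value printed in each cell. The row of Actg2 is pale, at -0.12 to 0.52, beside a block of 6 genes at 0.45 to 0.87 that was picked out after the values were seen. Lmod1, Mylk and Des also lie outside that block, and Mylk with Lmod1 is dark at -0.92.

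Genes that vary with Actg2 within genotype most closely, of 14230 genes with a mean of at least 1 CPM, were Nupl2 (r = 0.92), Elovl6, which lengthens fatty acids (0.90), Zfp280b (0.90), Pelo, which rescues stalled ribosomes (0.90), the imprinted gene Mest (0.89) and Tatdn1 (0.89). None of these 6 shared the genotype difference of Actg2. Their log2 differences ran from -0.17 to 0.12, and Elovl6, for example, had a median of 52.6 CPM in 16IC and 57.8 CPM in EIC. Closest to the mean of the other 9 contractile genes were Zswim8 (0.99), Stab1, a scavenger receptor of endothelium and macrophages (0.98), the bradykinin receptor gene Bdkrb2 (0.97), Col12a1 (0.97), Sfrp2, a secreted Wnt antagonist of fibroblasts (0.97), and Sf3a1 (0.97). Among the contractile genes themselves Cnn1 had an r of 0.99 with that mean, to which it contributes, and Actg2, which does not, had 0.29. Mylk (-0.06), Lmod1 (0.03) and Des (0.06) had a lower r than Actg2, though they contribute to that mean. The remaining contractile genes ran from 0.70 (Smtn) to 0.86 (Myh11). The nearest genes were picked as the highest of many over 10 tumours, and all these values are descriptions that carry no p.

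Des varied with skeletal muscle. The summed level of the 12 skeletal muscle genes measured, among them Acta1, Myh4 and Ckm, was 470, 30.4, 4.20, 82.2 and 14.6 CPM in 16IC tumours 1 to 5, against 1190, 2742, 11.4, 194 and 337 CPM in EIC tumours 1 to 5. All 12 had lower estimates in 16IC, with a median log2 difference of -2.87, which was -4.88 without 16IC 1 and -1.76 without EIC 2, and edgeR called 0 of them. The order of the tumours by this sum was nearly that by Des. Each of the 10 contractile genes was compared in the same within-genotype way with 8 lists of cell type markers, a comparison added after seeing the data, with adjustment over the 80 relations. Des and the skeletal muscle list had r = 0.97 and rho = 0.99 (exact permutation p = 6.94e-05 for both, the smallest that the arrangements allow, adjusted 0.00556), r was 0.96 without 16IC 1 and EIC 3, and it stayed between 0.95 and 0.98 when any 1 tumour was left out. The part of muscle content in the genotype difference of Des was not tested.

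**Figure D5:**
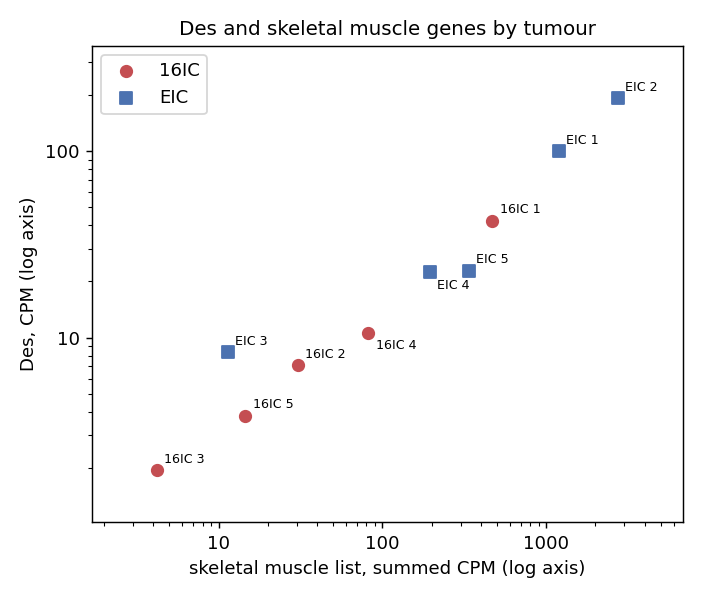
Des in CPM (vertical axis) against the summed CPM of 12 skeletal muscle genes (horizontal axis) in each tumour, both on log axes, with 16IC tumours as circles and EIC tumours as squares. Tumours of both genotypes lie along 1 line from 16IC 3 (4.20 and 1.95 CPM) to EIC 2 (2742 and 192 CPM).

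Mylk varied against the luminal epithelium list, with r = -0.90 and rho = -0.94 (exact permutation p = 0.00111 for r, adjusted 0.0444, and adjusted 0.0222 for rho). Without EIC 2 and EIC 5 its r was -0.83. No other of the 80 relations passed by Pearson's r. Cnn1 with fibroblast genes (r = 0.87, adjusted exact permutation p = 0.0514) and Myh11 with endothelial genes (r = 0.86, adjusted exact permutation p = 0.0514) came next, and the first of these passed by rank (rho = 0.94, adjusted exact permutation p = 0.0333). For Actg2, r with the 8 lists ran from -0.42 to 0.53, the highest being that with mural cells, which was -0.13 without EIC 3 and EIC 5, and its smallest adjusted exact permutation p was 0.384.

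The cell types that could hold contractile RNA were compared between the genotypes in the fit over all genes. Summed levels of 12 basal and myoepithelial genes that are not contractile were 1623, 1414, 1505, 895 and 1603 CPM in 16IC tumours 1 to 5, against 2258, 1472, 1670, 1757 and 1961 CPM in EIC tumours 1 to 5, with 3 of the 5 16IC tumours inside the EIC range. Of the 11 tested, 10 had lower estimates in 16IC (median log2 difference -0.79, and -0.42 with 8 lower without EIC 1), edgeR called 0 and DESeq2 called 1, the keratin gene Krt17, named here after its values were seen, with a median of 0.243 CPM in 16IC and 20.8 CPM in EIC. Krt5, Krt14, Krt17 and Col17a1 were at 0 in at least 1 16IC tumour. Itga6 and Dst, hemidesmosome genes that other cells also express, had the highest mean levels of the list. The 12 mural cell genes, of pericytes and vascular muscle, summed to 380 to 494 CPM in 16IC and 284 to 873 CPM in EIC, with 8 of 12 lower (median -0.47, and -0.30 without EIC 3). Much of this sum was Notch3, at 233 ± 58.1 CPM in 16IC and 202 ± 121 CPM in EIC. Its log2 difference was 0.21 (SE 0.35), so the sum does not stand for the whole list. DESeq2 called 1 of the 12 mural genes, Mcam, at 46.0 ± 7.75 CPM in 16IC and 89.0 ± 36.4 CPM in EIC. Over all genes with an adjusted p, DESeq2 called 1.27% lower in 16IC, the direction of Mcam and Krt17, and 2.11% in either. The 11 fibroblast genes summed to 442 to 3949 CPM in 16IC and 1977 to 7184 CPM in EIC, with 10 lower (median -0.60, -0.94 without 16IC 2 and -0.42 without EIC 1) and 0 called. What part these cell types have in the differences of the contractile genes was not tested.

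Other genes of the contractile apparatus had lower estimates in 16IC more often than higher ones. Of 27 tested out of 30 listed, 23 were lower and 4 higher, with a median of -0.53 beside -0.02 over all genes, and 24 were lower with scaling by total counts or DESeq2 size factors. EdgeR called 0 of them after adjustment and had 11 at an unadjusted p of 0.05, all lower, beside 6.29% of all genes in that direction. DESeq2 called 3, beside 1.27% of all genes in that direction. These were Synm, an intermediate filament protein that partners desmin, Pdlim3, a Z-disc adaptor that binds alpha-actinin, and Pdlim7, an adaptor of actin bundles. Synm had 10.6, 7.61, 5.17, 5.35 and 8.27 CPM in 16IC tumours 1 to 5, against 26.3, 30.9, 10.8, 19.1 and 19.2 CPM in EIC tumours 1 to 5, without overlap (log2 difference -1.52, SE 0.31, edgeR adjusted p 0.216, DESeq2 adjusted p 0.00125). Pdlim3 averaged 4.47 ± 2.01 CPM in 16IC and 19.3 ± 11.3 CPM in EIC, also without overlap (log2 difference -2.11, SE 0.46, edgeR adjusted p 0.249, DESeq2 adjusted p 0.00125), and was highest in EIC 1 and EIC 2. Pdlim7 averaged 40.6 ± 15.1 CPM in 16IC and 89.2 ± 14.2 CPM in EIC (log2 difference -1.14, SE 0.25, edgeR adjusted p 0.249, DESeq2 adjusted p 0.00744). When the 3 tumours richest in muscle RNA were left out, 19 of the 27 were lower, with a median of -0.53. Without 16IC 5 the median was -1.12, with 25 lower, and without 16IC 4 it was -0.44, with 20 lower.

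The remaining actins had lower estimates in 16IC as well. The cytoplasmic actin Actb averaged 1833 ± 591 CPM in 16IC and 2796 ± 169 CPM in EIC, without overlap (log2 difference -0.61, SE 0.23, edgeR adjusted p 0.322). Actg1, the other cytoplasmic form, averaged 1872 ± 427 CPM in 16IC and 2561 ± 369 CPM in EIC (log2 difference -0.45, SE 0.21, edgeR adjusted p 0.381). Skeletal Acta1, itself on the skeletal muscle list, had 0.0608 to 194 CPM in 16IC and 1.32 to 1190 CPM in EIC. Cardiac Actc1 was near 0 in both genotypes and was not tested.

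Of the 8 regulators of contractile genes tested, 7 had lower estimates in 16IC, with a median of -1.0 (-0.64 without EIC 1), and 0 were called by edgeR or DESeq2. Tead1, which binds MCAT elements of muscle genes, had a median of 51.9 CPM in 16IC, with a range of 30.4 to 84.7, against 124 CPM in EIC, with a range of 74.2 to 180 (log2 difference -1.09, SE 0.32, edgeR adjusted p 0.288). Mef2c, a muscle transcription factor, had a log2 difference of -1.09 (SE 0.38, edgeR adjusted p 0.307) and Klf4, a repressor of contractile genes in smooth muscle, one of -1.39 (SE 0.58, edgeR adjusted p 0.358). Srf itself had a median of 86.6 CPM in 16IC and 85.5 CPM in EIC, with a log2 difference of -0.04 (SE 0.21). Myocd, its cofactor in smooth muscle, was not above 0.216 CPM in 16IC or 0.438 CPM in EIC and was not tested. Mkl1 and Mkl2, of the same myocardin family, were well above that level. Mkl1 had medians of 50.9 CPM in 16IC and 54.7 CPM in EIC (log2 difference -0.22, SE 0.23). Mkl2 had medians of 76.7 CPM in 16IC and 62.6 CPM in EIC (log2 difference 0.10, SE 0.18).

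Among 19 genes of signals that start or oppose contraction, from receptors to calcium channels, kinases and phosphatase subunits, 12 were lower and 7 higher. Their median was -0.21 (-0.05 without 16IC 3, -0.13 without EIC 5 and -0.31 with 13 lower without 16IC 5). Of these genes 0 were called by edgeR or DESeq2, and 15 were lower with scaling by total counts. Rock2, a kinase that keeps myosin phosphorylated, averaged 110 ± 25.2 CPM in 16IC and 166 ± 15.5 CPM in EIC, without overlap (log2 difference -0.59, SE 0.17, edgeR adjusted p 0.286). Ppp1r12a, the targeting subunit of myosin phosphatase, had a log2 difference of -0.39 (SE 0.15, edgeR adjusted p 0.325). Ppp1r14a, an inhibitor of that phosphatase, was at 1.81 CPM or less in every tumour (log2 difference -1.49, SE 0.50, edgeR adjusted p 0.290).

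Promoter sequence was at hand in RefSeq, build GRCm38.p6, for 7 of the 10 genes: Acta2, Cnn1, Mylk, Oxtr, Lmod1, Des and Smtn. Each window ran from 250 bases before to 50 bases after 1 RefSeq start. The windows of Mylk (chromosome 16, 34784700 to 34784999) and Smtn (chromosome 11, 3539243 to 3539542) lie inside the gene positions given above. Those 2 are therefore windows of internal starts. The window of Acta2, chr19:34255324-34255623 on the minus strand, is shown because it carries the forms of the CArG box for which this gene is known, each with 1 G or C inside the A and T core. They begin at -84 and -34 from the RefSeq start and stand in capitals. In the deposited table Acta2 ends at 34255336, another position in this window, and distances counted from there would differ.
Acta2 promoter: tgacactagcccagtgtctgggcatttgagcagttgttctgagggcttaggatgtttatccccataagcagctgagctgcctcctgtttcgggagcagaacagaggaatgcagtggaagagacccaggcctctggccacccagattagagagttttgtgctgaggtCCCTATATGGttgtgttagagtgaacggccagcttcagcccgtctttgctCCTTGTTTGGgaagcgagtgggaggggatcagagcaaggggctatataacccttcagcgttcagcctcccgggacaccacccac
On either strand, the full CArG box was in 0 of the 7 windows, beside 1.63% of 32851 RefSeq promoters of the same length, and the form with 1 G or C inside was in 1 of the 7, beside 8.50%. The MCAT element, CATTCC or its reverse complement GGAATG, was in 4 of the 7 (Acta2, Mylk, Lmod1 and Smtn), beside 14.7%. These matches describe the windows only, which for Mylk and Smtn lie at internal starts.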

How the data were processed

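RNA was measured in 5 16IC and 5 EIC mammary tumours. Extraction used Qiagen RNeasy Mini and library preparation NEBNext Ultra II, per the labels' protocols. The tools were Trimmomatic, STAR, HTSeq, edgeR and limma on GRCm38 (mm10), per the submitters' processing notes, which name no versions. Other settings, such as strand and read length, were not given in the sources used here. The authors deposited 1 table with raw counts per gene and tumour, normalized counts (a signal equal to the counts over 1 factor per library), FPKM, and log2 fold changes with p-values for 16IC over EIC. The counts were used for every test, and the deposited FPKM for comparing levels between genes. The deposited log2 fold changes are quoted for 3 genes, where they nearly equal those of DESeq2 here.

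Counts were scaled by TMM and fitted over all genes with edgeR 4.0.16 (R 4.3.3, robust quasi-likelihood, filterByExpr with a minimum count of 10, a term for genotype). P-values were adjusted by Benjamini-Hochberg, and the threshold was 0.05. DESeq2 1.42.0 was the alternative. Standard errors come from edgeR's F statistic. Within-genotype correlations used log2 CPM with a prior count of 2. The spread behind each p is that between animals. The median biological coefficient of variation was 33.6%, and 11148 genes were not tested. Mitochondrial counts were 0.549% to 1.41%. The closest libraries of a group, 16IC 2 and 16IC 5, differed by more than sampling noise (chi-square over degrees of freedom 26.3). No batch is given in the labels. The scripts were tested on simulated data. Alternatives were other scalings, filters and prior counts, DESeq2, and leaving out each tumour.

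The members and the 12 gene lists were chosen with earlier results of these data known. Besides the members, named genes are the other actins, the 3 genes with the smallest edgeR p in each list on contraction, the 2 most abundant genes of each cell type list, of which those a result turns on are printed, and the 6 genes nearest to Actg2 and to the mean of the other 9. Other genes named are defining markers or central regulators. RefSeq sequence was used for promoters, and GENCODE transcripts for coding sequence and overlaps. The lists of endothelial, luminal, adipocyte and leukocyte genes had 0 edgeR calls, with median log2 differences of -0.15, 0.16, -0.49 and -0.43, and DESeq2 called 1 of their genes, Gata3 of the luminal list (log2 difference 0.86, DESeq2 adjusted p 0.0206). Over all genes with an adjusted p, DESeq2 called 2.11% in either direction.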

Additional observations from a re-analysis of the deposited data

Results flagged for a closer look

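Of the 20 groups examined, 10 genes in each genotype, 2 had 1 tumour far from the other 4 by Dixon's criterion. For normally distributed values chance alone would pick out about 1 group in 20. The criterion was applied to CPM and not to log2 CPM, so that rate need not hold here. Mylk was at 98.0 CPM in EIC 2, against 8.19 to 30.7 CPM in the other EIC tumours. EIC 2 also had the least Lmod1 (13.5 CPM) and the most skeletal muscle RNA (2742 CPM summed) of all tumours, and whether these go with its Mylk was not tested beyond the correlations given. Des was at 42.4 CPM in 16IC 1, against 1.95 to 10.6 CPM in the other 16IC tumours. The same tumour had the highest sum of skeletal muscle genes among 16IC, 470 CPM against 4.20 to 82.2 CPM in the others.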

How the results depend on the processing

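EdgeR called 0 genes under each scaling and filter tried, DESeq2 called 356, of which 1 is a contractile gene (Actg2), and leaving out 1 tumour gave 0 to 2 genes with edgeR (2 without EIC 2, 1 without EIC 1). The gap of Actg2 to the other 9 ran from -2.35 to -2.34 under the other scalings, filters and DESeq2, and was -2.90 without the 3 tumours richest in muscle RNA, a setting chosen after seeing the data. The count of pairs past the threshold was 0 with a prior count of 0.5, 4 with total counts and 1 with DESeq2 size factors, and 0 to 7 with 1 tumour left out. With 1 tumour left out, signs changed for the log2 differences of Smtn (-0.26 to 0.14), Oxtr (-0.56 to 0.94), Cdh5 (-0.27 to 0.024) and Fabp4 (-1.05 to 0.040) and for the median of the endothelial list (-0.25 to 0.0090). Signs also changed for the r of Actg2 with Acta2 (-0.17 to 0.34), Tagln (-0.17 to 0.36), Mylk (-0.00012 to 0.54), Oxtr (-0.12 to 0.36), Lmod1 (-0.41 to 0.058) and Des (-0.40 to 0.38, and -0.022 with total counts), all of which missed the threshold. The cause of these moves was not tested.

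No paired analysis was possible because tumour numbers are only names given in sample order. Depth limits Actg2 in 16IC and Tagln and Cnn1 in both genotypes, which rest on few counts, so that their correlations hold counting error. Myh11 was also low in some tumours, with 9 counts in 16IC 3 and 20 in 16IC 4 and in EIC 2.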
